A study of Mus musculus with 9 samples.

Results

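The classical MHC class I genes and the genes that load peptides onto their products were followed in interferon-treated mouse macrophages of 3 genotypes. The set holds 10 genes chosen by symbol: the heavy chains H2-K1 and H2-D1, the light chain B2m, the transporter genes Tap1 and Tap2, the loading-complex genes Tapbp, Calr and Pdia3, the trimming peptidase Erap1 and the transactivator Nlrc5. All 10 were found among 29763 named genes, and all 10 were among the 11133 genes kept for testing, which reached at least 1 TPM in at least 3 libraries. TPM is an abundance divided by transcript length and scaled to the library's total, so levels can be compared between genes.

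Polyadenylated RNA came from bone marrow-derived macrophages, primary cells grown over 7 days with 30% L929 supernatant, which supplies the growth factor Csf1. Every culture then received interferon-gamma at 40 ng/ml for 12 h. The groups were the Ndufa4l3-miR147 knockout (also named Nmes1, gene symbol AA467197), the Ndufa4 knockout and wild type, with 3 libraries each. The labels call the replicates technical, so every p-value measures the spread between libraries and not between mice, and an effect of a lost gene cannot be told apart from other differences between the cells of each genotype. No unstimulated culture was analysed here, so the values compare genotypes under interferon and do not give the response to it. The sources used here give no strain, sex or age of the mice.

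MHC class I molecules display short peptides from inside the cell to CD8 T cells. Cytosolic proteasomes cut the peptides, the TAP transporter carries them into the endoplasmic reticulum, and Erap1 trims them there. Tapasin (Tapbp), calreticulin (Calr) and the thiol oxidoreductase ERp57 (Pdia3) hold the empty heavy chain and light chain dimer at the transporter until a peptide fits. Interferon-gamma raises most of these transcripts, in part through Irf1 and through Nlrc5, which acts at the promoters of class I genes. Ndufa4 is a subunit associated with mitochondrial complex IV, Ndufa4l3 is its paralog, and the study concerns complex IV make-up and interferon signalling in macrophages.

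The promoters of the heavy and light chain genes are shown because their products form the class I dimer, and because the H2-K1 and H2-D1 promoters can be aligned base by base. The sequences are RefSeq's for GRCm38.p6, read 5′ to 3′ towards the gene. Capitals mark matches to a kappaB core (GGGATTCCC), to an interferon-response core with the long repeat first (GAAANNGAA) or the short repeat first (GAANNGAAA), to TGACGC, part of the X2 box, and to CCAAT. Each was searched on both strands, and no matches overlapped in the sequences shown. The H2-K1 stretch is chr17:34000348-34000467, minus strand, and the B2m stretch is chr2:122147538-122147657, plus strand.
H2-K1: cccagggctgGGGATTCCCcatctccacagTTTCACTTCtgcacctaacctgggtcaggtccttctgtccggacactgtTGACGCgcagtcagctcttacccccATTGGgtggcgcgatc
B2m: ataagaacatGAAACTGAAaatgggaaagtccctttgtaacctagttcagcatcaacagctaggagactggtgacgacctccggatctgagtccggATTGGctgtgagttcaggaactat
The 29 bases from the kappaB core to the end of the interferon-response core are set side by side from chr17:34000429-34000457 (minus strand) for H2-K1 and chr17:35262924-35262952 (plus strand) for H2-D1.
H2-K1 core: GGGATTCCCcatctccacagTTTCACTTC
H2-D1 core: GGGATTCCCcatctcctcagTTTCACTTC

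Over these 29 bases H2-K1 and H2-D1 differed at 1 position, and over a 120-base block they were identical at 107 positions (89.2%). Promoter windows of 250 bases were found in the table for 8 of the 10 genes, all but Tap2 and Nlrc5. By GENCODE M21, 7 of these 8 windows, all but that of H2-K1, overlap an annotated exon, and those of H2-D1, Tapbp and Erap1 lie wholly inside the gene's span, so they are windows before the RefSeq start and not always upstream of the gene. The kappaB core was present in H2-K1 and H2-D1 among the 8, and in 0.302% of 32817 promoter windows of that length. GAAANNGAA was present in B2m and Erap1 among the 8 and in 7.12% of all windows, and GAANNGAAA in H2-K1 and H2-D1 and in 6.31% of all windows. CCAAT was present in 7 of the 8 and in 33.8% of all windows, and TGACGC in H2-K1, H2-D1 and Pdia3 and in 6.11%. A gamma-activated site (TTCNNNGAA) was present in 0 of the 8 and in 7.01% of all windows. Longer words had been searched first: the kappaB matches extend by a G before and a C after, and the GAAANNGAA match of B2m extends by a further A, while that of Erap1 does not. The matches describe letters in these windows.

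On GRCm38 (GENCODE M21) the genes lie on 4 chromosomes, and all are protein coding. H2-K1 (ENSMUSG00000061232.16; 33996017 to 34000347, minus strand), H2-D1 (ENSMUSG00000073411.11; 35262730 to 35267499, plus), Tap1 (ENSMUSG00000037321.17; 34187553 to 34197225, plus), Tap2 (ENSMUSG00000024339.12; 34203527 to 34216321, plus) and Tapbp (ENSMUSG00000024308.15; 33915899 to 33929292, plus) lie on chromosome 17. B2m (ENSMUSG00000060802.8; 122147686 to 122153083, plus) and Pdia3 (ENSMUSG00000027248.13; 121413775 to 121438687, plus) lie on chromosome 2, the chromosome of AA467197, at 483.9 kb and 1198.3 kb from it. Calr (ENSMUSG00000003814.8; 84841850 to 84846934, minus) and Nlrc5 (ENSMUSG00000074151.13; 94434356 to 94527272, plus) lie on chromosome 8, and Erap1 (ENSMUSG00000021583.7; 74639568 to 74693201, plus) lies on chromosome 13.

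Several of the genes share sequence with others, so an abundance estimate may move reads between them. Of the 31-base words of the longest coding transcript of H2-K1, 23.3% also occurred in transcripts of another gene. The share was 16.9% in those of H2-D1, with H2-Q4 next among the genes ranked. Not every gene of the transcript set was ranked. For H2-D1 the share was 27.7%, with 12.9% in H2-K1. Tapbp shared 23.9% of its words with other genes, and Tap2 shared 15.5%. Among the genes ranked, Ilf2 held the most for Tapbp, at 1.499% of its words, and Tap1 for Tap2, at 1.29%. Most of either share therefore lay outside Ilf2 and Tap1. Tap1 shared 6.23% of its words with Psmb9, its immunoproteasome neighbour, and Erap1 shared 14.3% with Cast, the calpastatin gene. B2m and Pdia3 shared 0 words with another gene, so their values are not open to that exchange in this transcript set.

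Ndufa4 knockout replicate 3 stands apart. The axis that held 34.5% of the variance placed it at 40.4, against -11.4 to 4.56 for the other 8 libraries. Its deviation from the other libraries of its genotype had a Spearman rho of -0.509 with transcript length over 10673 genes (genes, not replicates). The same measure was 0.335 and 0.407 for Ndufa4 knockout replicates 1 and 2 and -0.076 to 0.115 in the other groups. Replicate 3 is part of what replicates 1 and 2 were set against, so their values are not independent of it. The removed gene was nearly absent from its knockout, with AA467197 at 2.21 to 4.50 TPM in that knockout, 472 to 527 TPM in the Ndufa4 knockout and 355 to 365 TPM in wild type. Ndufa4 was listed at 0 TPM in all 3 Ndufa4 knockout libraries, at 0 to 0.621 TPM in Ndufa4l3-miR147 knockout libraries and at 0 to 0.303 TPM in wild type, so it checks nothing about the Ndufa4 labels. All 8 macrophage markers were detected, with summed levels of 8826 to 9019 TPM in Ndufa4l3-miR147 knockout libraries, 9757 to 10220.0 TPM in the Ndufa4 knockout and 9236 to 9371 TPM in wild type. None of 7 lymphocyte and NK cell markers passed the detection rule, and their sum was below 1 TPM in every library.

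Transcripts of the light chain were among the most abundant in these macrophages. B2m ranked 2 of 11133 genes by mean TPM, H2-D1 ranked 33 and H2-K1 ranked 43. Calr ranked 60, Pdia3 197, Tap1 438, Tapbp 667, Tap2 799, Erap1 1962 and Nlrc5 6161. The order of levels was the same in all 9 libraries, and the ranges of neighbours over the 9 libraries overlapped only between H2-K1 and Calr and between Tapbp and Tap2. Together the 10 genes made up 2.18% to 2.24% of the table in the Ndufa4l3-miR147 knockout, 2.02% to 2.09% in the Ndufa4 knockout and 2.14% to 2.19% in wild type. The Ndufa4 knockout libraries lay below both other groups in this share, most of which is B2m.

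**Figure D1:**
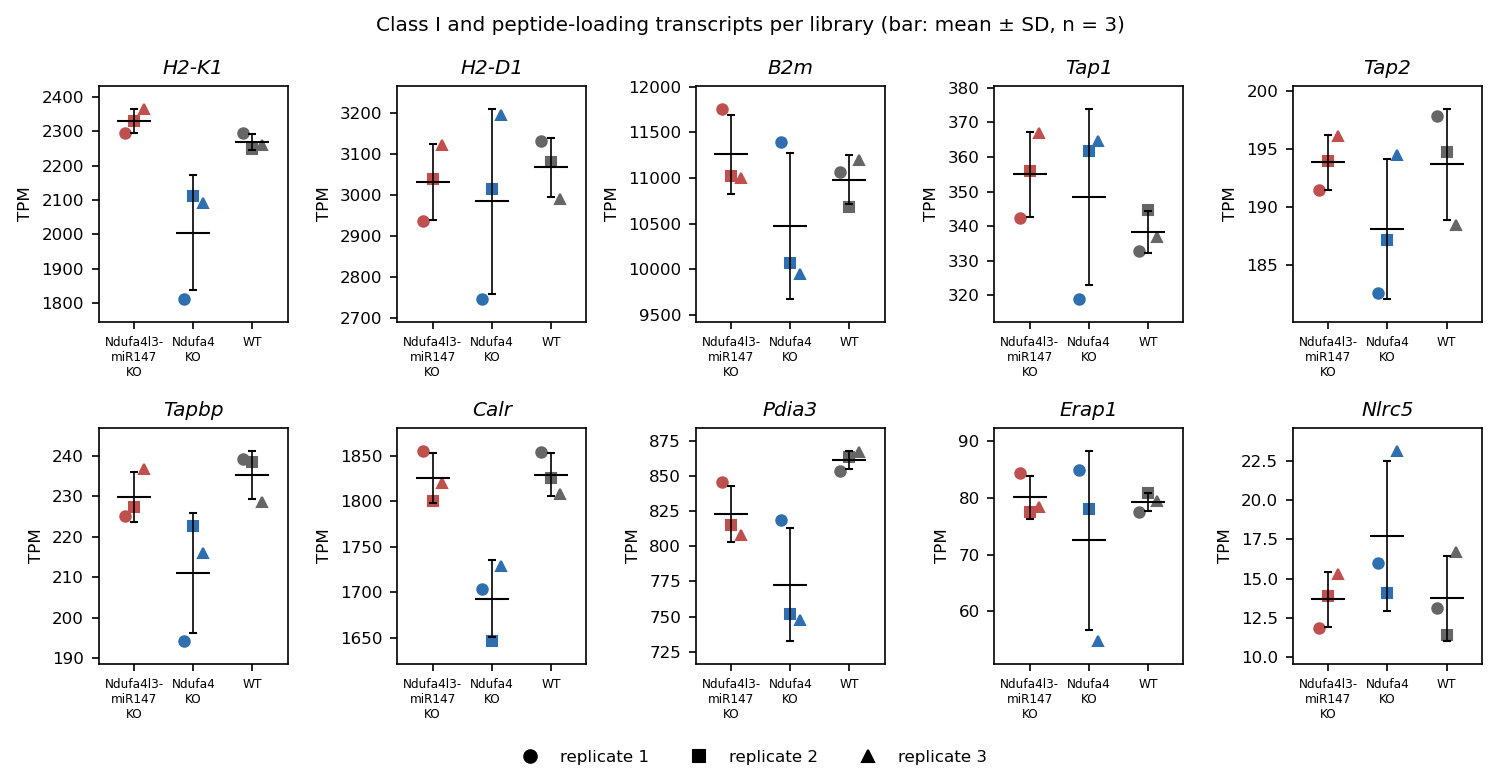
TPM of each of the 10 genes in every library, by genotype, with the mean and SD of 3 libraries (vertical axes are in TPM, differ between panels and do not start at 0). The Ndufa4 knockout libraries lie below every wild-type library for H2-K1, Tapbp, Calr and Pdia3, beside 21.7% of all genes. Replicate 3 of that knockout is lowest of the 9 for Erap1 (54.7 TPM) and highest for Nlrc5 (23.1 TPM).

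The heavy chains present the peptide. H2-K1 was at 2295, 2329 and 2365 TPM in replicates 1 to 3 of the Ndufa4l3-miR147 knockout, at 1813, 2112 and 2091 TPM in the Ndufa4 knockout and at 2294, 2248 and 2261 TPM in wild type. The Ndufa4 knockout was lowest, with its replicate 1 farthest down, and overlapped neither other group. The Ndufa4l3-miR147 knockout and wild type were separated by about 1 TPM at their nearest libraries. H2-D1 was at 2935, 3039 and 3121 TPM in Ndufa4l3-miR147 knockout libraries, at 2745, 3013 and 3194 TPM in the Ndufa4 knockout and at 3132, 3079 and 2990 TPM in wild type. Here the Ndufa4 knockout held both the lowest and the highest library, and all groups overlapped.

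The light chain and the transporter showed no separation. B2m, which pairs with the class I heavy chains, was at 11758, 11023 and 11001 TPM in Ndufa4l3-miR147 knockout libraries. It was at 11391, 10076 and 9956 TPM in the Ndufa4 knockout and at 11069, 10687 and 11197 TPM in wild type. Replicates 2 and 3 of the Ndufa4 knockout were the lowest of the 9, while its replicate 1 was above all wild-type libraries. Tap1 ranged from 342 to 367 TPM in Ndufa4l3-miR147 knockout libraries, from 319 to 365 TPM in the Ndufa4 knockout and from 332.9 to 344.8 TPM in wild type. Tap2, its partner subunit, varied least of the 10 genes: the highest library was 1.08 times the lowest, with 191 to 196 TPM, 183 to 195 TPM and 188 to 198 TPM in the same order of groups.

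For the loading-complex genes the Ndufa4 knockout libraries lay below wild type in TPM. Tapbp was at 225, 227 and 237 TPM in Ndufa4l3-miR147 knockout libraries, at 194, 223 and 216 TPM in the Ndufa4 knockout and at 239, 238 and 229 TPM in wild type. Calr was at 1856, 1801 and 1820.1 TPM in Ndufa4l3-miR147 knockout libraries, at 1704, 1647 and 1729 TPM in the Ndufa4 knockout and at 1854, 1826 and 1808 TPM in wild type. Pdia3 was at 846, 815 and 808 TPM in Ndufa4l3-miR147 knockout libraries, at 819, 752 and 747 TPM in the Ndufa4 knockout and at 854, 863 and 867 TPM in wild type. For all 3 genes every Ndufa4 knockout library was below every wild-type library, beside 21.7% of all genes. For Pdia3 every Ndufa4l3-miR147 knockout library was also below every wild-type library, beside 12.0% of all genes.

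The trimming peptidase and the transactivator varied most. Erap1, which shortens peptides to the length class I binds, was at 84.4, 77.5 and 78.5 TPM in Ndufa4l3-miR147 knockout libraries, at 84.9, 78.0 and 54.7 TPM in the Ndufa4 knockout and at 77.5, 80.9 and 79.5 TPM in wild type. Nlrc5 was at 11.9, 13.9 and 15.3 TPM in Ndufa4l3-miR147 knockout libraries, at 15.98, 14.1 and 23.1 TPM in the Ndufa4 knockout and at 13.1, 11.4 and 16.7 TPM in wild type. Both extremes fell in Ndufa4 knockout replicate 3. Nlrc5 and Erap1 have the longest transcripts of the 10, at 7578 and 5644 bases. In that library longer transcripts tended to lie lower (Spearman rho of -0.509), as Erap1 did, while Nlrc5 lay higher. The part of that library's length trend in these values was not tested.

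The first comparison asked whether class I transcripts differ when the paralog Ndufa4l3 and its microRNA are absent. None of the 10 genes was called in the Ndufa4l3-miR147 knockout against wild type, at an adjusted p under 0.05 in limma over all 11133 genes, and 0 reached an unadjusted p under 0.05, beside 8.24% of all genes. Of all genes 0.431% were called, so a count of 0 among 10 is near the background. Of the 10 differences 4 were below 0, beside 49.6% of all genes. The differences, in log2(TPM + 1), ran from -0.07 for Pdia3 to 0.07 for Tap1, with a median of 0.003 beside 0.001 for all genes. H2-K1 differed by 0.04 ± 0.06 (SE), a change of 2.72% with a 95% interval of -6.15% to 12.4%, and B2m by 0.04 ± 0.06, with an interval of -6.30% to 12.1%. The interval was narrowest for Calr, at -5.70% to 5.59%, and widest for Nlrc5, at -25.6% to 35.0%. H2-D1 was at -0.02 ± 0.06 (-9.57% to 8.02%), Tap2 at 0.002 ± 0.04 (-6.45% to 7.12%), Tapbp at -0.03 ± 0.06 (-10.7% to 6.79%) and Erap1 at 0.01 ± 0.14 (-18.5% to 25.1%). All libraries of the knockout were higher for H2-K1 and lower for Pdia3, beside 11.9% and 12.0% of all genes so separated in each direction. Adjusted p values were between 0.858 and 1.0, and no alternative setting called any of the 10.

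Loss of Ndufa4 itself was examined next, with wild type as before. Again 0 of 10 genes were called by limma, where 8.59% of all genes were, while 4 had an unadjusted p under 0.05 beside 26.1% of all genes: Pdia3, H2-K1, Calr and Tapbp. H2-K1 averaged 2005 ± 167 TPM in the Ndufa4 knockout and 2268 ± 23.9 TPM in wild type (SD, n = 3 each), a difference of -0.18 ± 0.06 on the log2 scale or -11.8%, with a 95% interval of -19.4% to -3.45% (limma adjusted p = 0.0884). Pdia3 averaged 773 ± 40.0 TPM in the Ndufa4 knockout and 861 ± 6.64 TPM in wild type, a difference of -0.16 ± 0.05 (-16.5% to -3.77%; limma adjusted p = 0.0644). Calr averaged 1693 ± 42.1 TPM in the Ndufa4 knockout and 1829 ± 23.4 TPM in wild type, a difference of -0.11 ± 0.04 (-12.6% to -2.08%; limma adjusted p = 0.0911). Tapbp averaged 211 ± 14.8 TPM in the Ndufa4 knockout and 235 ± 5.88 TPM in wild type, a difference of -0.16 ± 0.06 (-18.1% to -2.03%; limma adjusted p = 0.122). These 4 were the ones whose libraries all lay below wild type, beside 21.7% of all genes.

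**Figure D2:**
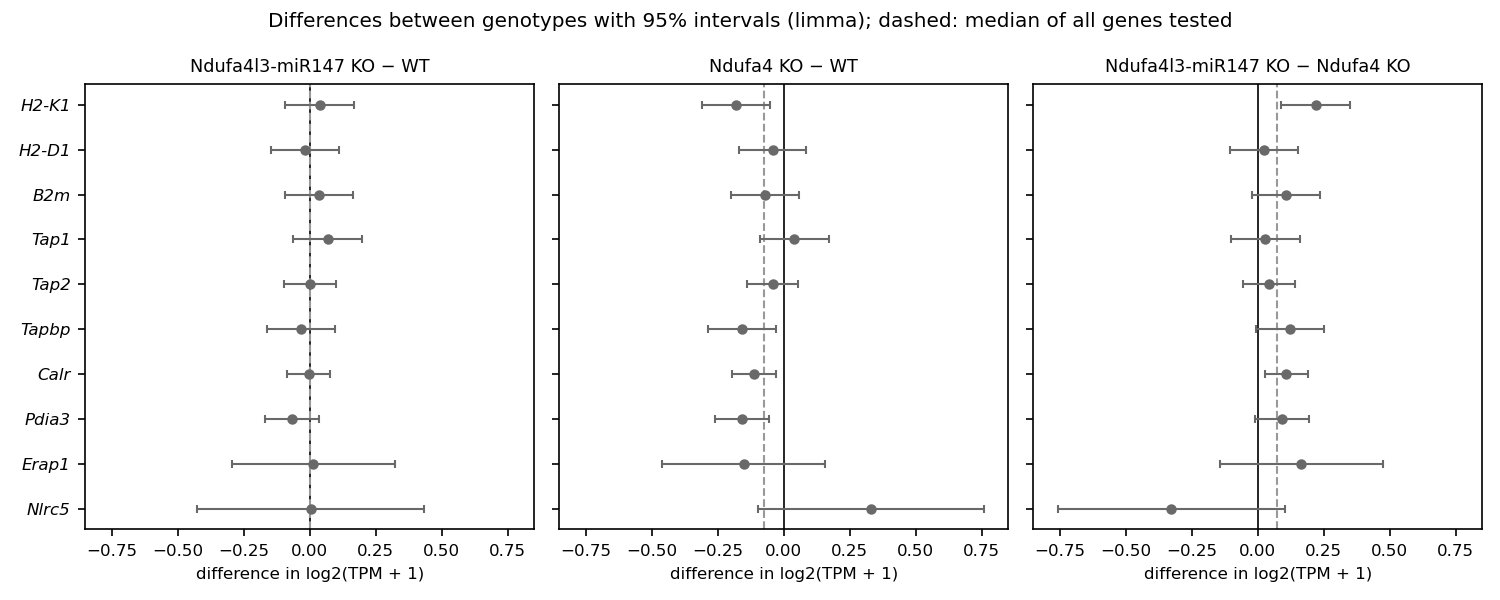
Difference in log2(TPM + 1) for each gene (rows) in the 3 comparisons (panels), as the limma estimate with its 95% interval, and the median of all genes tested as a dashed line. Intervals of the first panel all span 0, while in the second those of H2-K1 (-0.31 to -0.05), Tapbp, Calr and Pdia3 lie below 0 before adjustment over 11133 genes.

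For the other 6 genes the 95% interval spanned 0 in the Ndufa4 knockout. H2-D1 was at -0.04 ± 0.06 (-11.1% to 6.16%), B2m at -0.07 ± 0.06 (-13.0% to 4.12%), Tap1 at 0.04 ± 0.06 (-6.10% to 12.6%) and Tap2 at -0.04 ± 0.04 (-9.22% to 3.94%). Erap1 was at -0.15 ± 0.14 and Nlrc5 at 0.33 ± 0.19, with intervals of -27.3% to 11.6% and -6.62% to 69.4%. The limma adjusted p of these 6 lay between 0.304 and 0.691. Without Ndufa4 knockout replicate 3, Erap1 was at 0.04 and Nlrc5 at 0.13. Of the 10 differences 8 were below 0, with a median of -0.09 beside -0.08 for all genes, of which 64.5% were below 0. With median-of-ratios scaling 5 of 10 were below 0, and H2-D1, B2m and Tap2 changed sign.

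Whether H2-K1, Calr and Pdia3 pass depends on how the Ndufa4 knockout libraries are weighed and on how libraries are scaled. Without its replicate 3, H2-K1 was at -0.21 (limma adjusted p = 0.0415) and Calr at -0.13 (limma adjusted p = 0.029). Without its replicate 1, Pdia3 was at -0.20 (limma adjusted p = 0.0155), while H2-K1 was at -0.11 (limma adjusted p = 0.0594). With limma's library weights, which gave replicates 1 to 3 of this knockout 0.341, 3.67 and 0.101, all 3 genes passed, and with quantile normalization H2-K1 and Calr did. Scaling by the median of ratios put H2-K1 at -0.11 (limma adjusted p = 0.431), Pdia3 at -0.08 (limma adjusted p = 0.336) and Calr at -0.04 (limma adjusted p = 0.727).

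**Figure D3:**
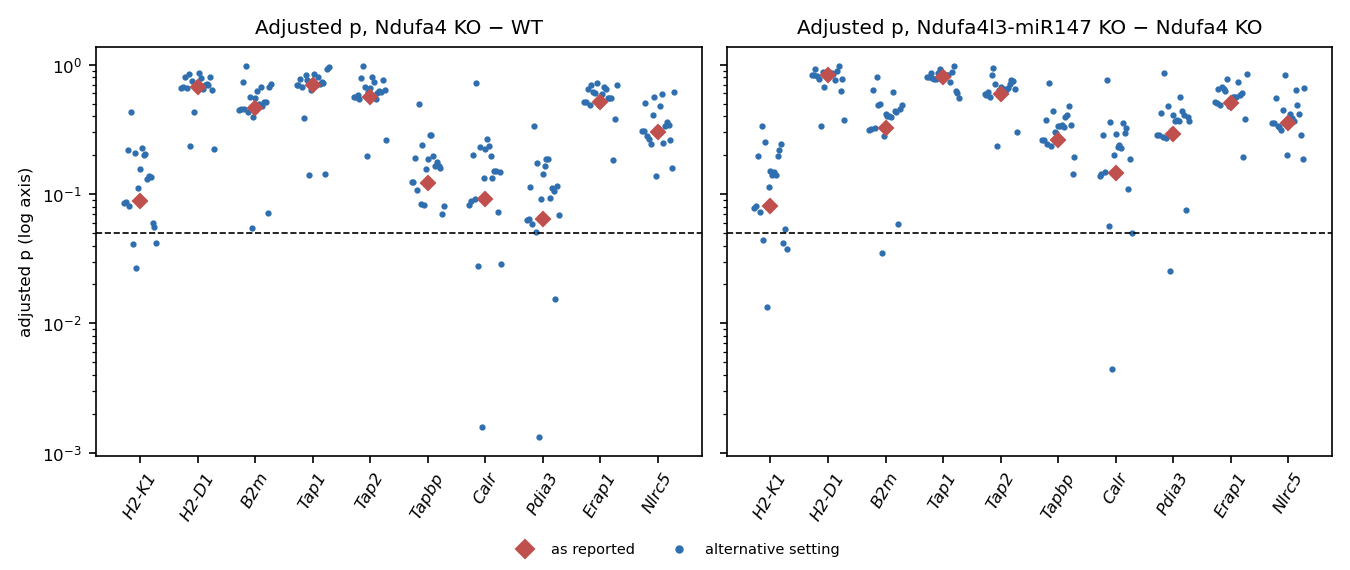
Limma adjusted p of each gene (log axis) as reported (diamonds) and under 19 alternative settings (dots), with Ndufa4 knockout against wild type on the left and the knockouts against each other on the right; the dashed line is at 0.05. No diamond lies below the line, and dots below it belong to H2-K1, Calr and Pdia3 on the left and to H2-K1, B2m, Calr and Pdia3 on the right.

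The last comparison set the knockouts against each other and is the test of whether their changes differ, since both are measured against the same wild-type libraries. None of the 10 genes was called, beside 3.24% of all genes, and 2 had an unadjusted p under 0.05, H2-K1 and Calr, beside 20.3% of all genes. H2-K1 was at 2330 ± 34.6 TPM in Ndufa4l3-miR147 knockout libraries and 2005 ± 167 TPM in the Ndufa4 knockout, a difference of 0.22 ± 0.06 or 16.4% (6.39% to 27.4%; limma adjusted p = 0.0811). It was called without Ndufa4 knockout replicate 1 (0.15; limma adjusted p = 0.0421) and without its replicate 3 (0.25; limma adjusted p = 0.0375), but not when scaled by the median of ratios (0.15; limma adjusted p = 0.334). Calr differed by 0.11 ± 0.04 (limma adjusted p = 0.146) and Tapbp by 0.12 ± 0.06 (limma adjusted p = 0.261). B2m differed by 0.11 ± 0.06 (-1.57% to 17.8%) and Pdia3 by 0.09 ± 0.05 (-0.738% to 14.4%), while H2-D1 was at 0.03 ± 0.06 (-6.90% to 11.2%), Tap1 at 0.03 ± 0.06 (-6.81% to 11.7%) and Tap2 at 0.04 ± 0.04 (-3.69% to 10.3%). Erap1 was at 0.17 ± 0.14 and Nlrc5 at -0.33 ± 0.19, and without Ndufa4 knockout replicate 3 they were at -0.02 and -0.13. For H2-K1, Calr and Tapbp every Ndufa4l3-miR147 knockout library was above every Ndufa4 knockout library, beside 18.3% of all genes. Of the 10 differences 1, that of Nlrc5, was below 0, beside 33.8% of all genes, with a median of 0.10 beside 0.07 for all genes. Scaled by the median of ratios, 4 of 10 were below 0.

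Ratios within a library do not depend on scaling between libraries, and 4 of them were taken after the values had been seen. The ratio of H2-K1 to H2-D1 was 0.782, 0.766 and 0.758 in the Ndufa4l3-miR147 knockout, 0.660, 0.701 and 0.655 in the Ndufa4 knockout and 0.733, 0.730 and 0.756 in wild type. The 3 genotypes did not overlap, with wild type in between and its replicate 3 just below the lowest Ndufa4l3-miR147 knockout library. The means differed by 0.0291 between the Ndufa4l3-miR147 knockout and wild type, by -0.0677 between the Ndufa4 knockout and wild type and by 0.0968 between the knockouts. An exact permutation test gave p = 0.1 for each, two-sided, which is the smallest that 3 against 3 libraries allow (0.3 when adjusted over 12 ratio tests), so no difference could pass. Because H2-K1 and H2-D1 share sequence, a shift of reads between them would move this ratio, and its part was not tested.

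The other 3 ratios separated the groups less. B2m to the sum of H2-K1 and H2-D1 averaged 2.10 ± 0.128 in the Ndufa4l3-miR147 knockout, 2.12 ± 0.334 in the Ndufa4 knockout and 2.06 ± 0.0655 in wild type, with Ndufa4 knockout libraries from 1.88 to 2.50. Tap1 to Tap2 averaged 1.83 ± 0.0411, 1.85 ± 0.0949 and 1.75 ± 0.0564 in the same order of groups (SD, n = 3 libraries each), all overlapping. Calr to Pdia3 averaged 2.22 ± 0.0303, 2.19 ± 0.116 and 2.12 ± 0.0436. The Ndufa4l3-miR147 knockout lay above wild type in that ratio in all libraries (exact permutation p = 0.1, the smallest possible; 0.3 adjusted over the 12 tests).

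**Figure D4:**
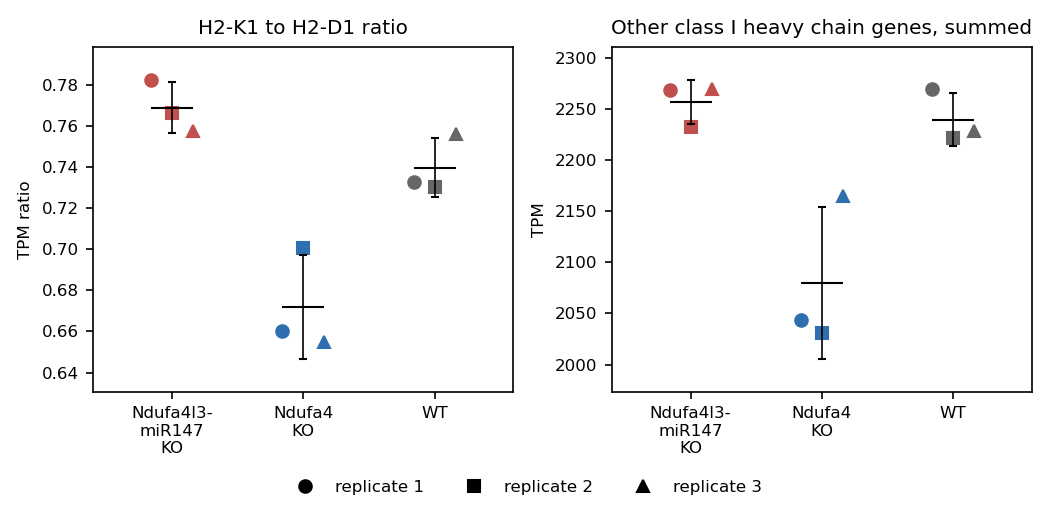
Left, the ratio of H2-K1 to H2-D1 TPM in each library. Right, the summed TPM of the other class I heavy chain genes (H2-K2, H2-Bl and the H2-Q, H2-T and H2-M genes). The sum leaves out Mr1 and Cd1d1, which the tested list holds. Both panels are by genotype with mean and SD of 3 libraries (axes do not start at 0). The Ndufa4 knockout libraries are lowest in both, at 0.655 to 0.701 on the left and 2031 to 2165 TPM on the right. Most of the sum is H2-T23, with a mean of 1424 of 2080 TPM in the Ndufa4 knockout. H2-T23 was not called there against wild type (limma adjusted p = 0.53), and the sum was not tested.

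Some of the other class I heavy chain genes, several of them nonclassical, fell in the Ndufa4 knockout. Of 12 tested, 4 fell against wild type and 0 rose, where 5.76% of all genes were called lower. The median difference was -0.26, beside -0.08 for all genes. H2-Q4 fell by 0.37 ± 0.05 to 168 ± 8.38 TPM in the Ndufa4 knockout, against 217 ± 5.34 TPM in wild type (limma adjusted p = 0.00506). H2-Q6 fell by 0.60 ± 0.09 to 17.2 ± 2.12 TPM, against 26.6 ± 1.94 TPM in wild type (limma adjusted p = 0.00679), and H2-Q5 by 0.52 ± 0.08 to 12.9 ± 0.375 TPM, against 18.8 ± 1.17 TPM in wild type (limma adjusted p = 0.00863). Those 3 were called in 19 of 19 alternatives. The number called lower was 6 without Ndufa4 knockout replicate 3, 8 with library weights and 3 to 5 without any other 1 library. Scaled by the median of ratios, 3 were called lower, with a median of -0.19 beside -0.008 for all genes. H2-Q4 shares sequence with H2-K1, as given above, and members of the H2-Q family share sequence with each other. The most abundant of the list, H2-T23 (Qa-1), was at 1456 TPM in Ndufa4l3-miR147 knockout libraries, 1424 TPM in the Ndufa4 knockout and 1468 TPM in wild type, and H2-T22 at 254, 222 and 247 TPM. Against wild type 0 of 12 were called in the Ndufa4l3-miR147 knockout, where 4 of 12 were higher than in the Ndufa4 knockout, beside 2.2% of all genes, led by H2-Q6 (0.78 ± 0.09; limma adjusted p = 0.00344), H2-Q4 (0.36 ± 0.05; limma adjusted p = 0.00987) and H2-Q7 (0.55 ± 0.08; limma adjusted p = 0.0101). That number was 10 with library weights, 1 with only the 6 libraries compared, 7 without Ndufa4 knockout replicate 3, 1 without Ndufa4l3-miR147 knockout replicate 2, 2 without its replicate 1 or 3, and 2 when scaled by the median of ratios.

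Of 9 proteasome subunits and activators 0 were called in any comparison, beside 0.431%, 8.59% and 3.24% of all genes, so that 0 is near the background. Their median difference was 0.02 for Ndufa4l3-miR147 knockout over wild type, 0.11 for Ndufa4 knockout over wild type and -0.08 between the knockouts. Without Ndufa4 knockout replicate 3 the last 2 medians were 0.04 and -0.01, and scaled by the median of ratios they were 0.18 and -0.15. Psme2, a subunit of the PA28 activator, was at 1117 TPM in Ndufa4l3-miR147 knockout libraries, 1195 TPM in the Ndufa4 knockout and 1099 TPM in wild type, and the inducible subunit Psmb8 at 956, 1052 and 973 TPM. Of 7 other cytosolic and endosomal peptidases 0 were likewise called, with medians of -0.04, -0.14 and 0.11 in the same comparisons. Without Ndufa4 knockout replicate 3 the last 2 medians were 0.015 and -0.001, with 3 instead of 6 of the 7 genes below 0 against wild type, and scaled by the median of ratios they were -0.07 and 0.04. The leucine aminopeptidase Lap3 was at 103 TPM in Ndufa4l3-miR147 knockout libraries, 106 TPM in the Ndufa4 knockout and 114 TPM in wild type, and Nrd1 (nardilysin, now Nrdc) at 75.2, 73.5 and 74.9 TPM.

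Among 13 other chaperones and glycan-quality enzymes of the endoplasmic reticulum, 1 rose and 0 fell in the Ndufa4 knockout against wild type, beside 2.83% of all genes called higher. Mogs, the glucosidase that starts trimming of N-linked glycans, rose by 0.30 ± 0.06 to 32.1 ± 1.11 TPM in the Ndufa4 knockout, against 25.9 ± 0.436 TPM in wild type (limma adjusted p = 0.0161; called in 15 of 19 alternatives, and not without wild-type replicate 1, 2 or 3). The median of the 13 was -0.11, and it was -0.04 without Ndufa4 knockout replicate 3 and -0.03 when scaled by the median of ratios. The list had 0 calls in the other 2 comparisons. Its most abundant members were Hspa5 (BiP), at 1598 TPM in Ndufa4l3-miR147 knockout libraries, 1533 TPM in the Ndufa4 knockout and 1569.95 TPM in wild type, and Hsp90b1, at 904, 863 and 934 TPM.

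Of 16 transcriptional regulators of class I genes, 1 was called lower in the Ndufa4 knockout against wild type, a share near the 5.76% of all genes called lower. Without Ndufa4 knockout replicate 3, 1 was called higher and 1 lower. Stat2, a transcription factor of type I interferon signalling, fell by 0.41 ± 0.06 to 97.6 ± 8.01 TPM in the Ndufa4 knockout, against 130 ± 3.23 TPM in wild type (limma adjusted p = 0.00746). All 19 alternatives called it. It was higher in the Ndufa4l3-miR147 knockout than in the Ndufa4 knockout by 0.37 ± 0.06 (limma adjusted p = 0.0193), a call made in 14 of 19 alternatives and lost without replicate 1, 2 or 3 of the Ndufa4l3-miR147 knockout, with only the 6 libraries compared and with a replicate block. Irf1, an interferon-induced activator of class I genes, was at 687 TPM in Ndufa4l3-miR147 knockout libraries, 657 TPM in the Ndufa4 knockout and 674 TPM in wild type, with limma adjusted p values of 1.0 and 0.554 for the knockouts against wild type.

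Markers of other cells moved with genotype in places. The 6 dendritic cell markers, 2 of them detected, summed to 30.1 to 35.3 TPM in Ndufa4l3-miR147 knockout libraries, 40.9 to 76.7 TPM in the Ndufa4 knockout and 27.8 to 29.8 TPM in wild type, nearly all of it Clec9a, while Flt3 and Zbtb46 stayed below the detection limit. The 5 stromal markers ran from 36.6 to 45.0 TPM, from 6.16 to 130.2 TPM and from 7.09 to 44.4 TPM in the same order, highest in Ndufa4 knockout replicate 3, and the 6 neutrophil markers from 31.2 to 61.5 TPM, 1.47 to 32.4 TPM and 3.68 to 68.3 TPM. The 6 erythroid, megakaryocyte and mast cell markers, led by Pf4, summed to 126 to 173 TPM, 81.9 to 119.8 TPM and 108 to 239 TPM. The part of these markers in the class I values was not tested. In bulk RNA, fewer cells of a type and less RNA per cell cannot be told apart.

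Genes with the most similar profile over the 9 libraries were sought among 7281 genes with a mean of at least 10 TPM. For H2-K1 these were Ubald2, Ptpn23 and Atp13a2 (Pearson r of 0.986, 0.979 and 0.978). For Tap1 they were Irf8, an interferon-induced transcription factor, Jund and Napa (0.973, 0.962 and 0.945). For Calr they were Prdx4, a peroxiredoxin of the endoplasmic reticulum, Ifitm3 and Rapgef1 (0.978, 0.977 and 0.968). The 9 points share culture and genotype within each group of 3, so these values only describe the libraries.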

How the data were processed

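Messenger RNA of 9 libraries was analysed from a table of TPM that the authors deposited; the submitters' processing notes list mm10 and GRCm39 as builds and, as tools, kallisto, edgeR and DESeq2, without version or role. How transcripts were summed to genes is not given in the sources used here. Sequencing depth is unknown, because TPM do not retain it, and counting error could not be stated. TPM are shares of a fixed total, and 1 entry without a gene name was left out.

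Values were analysed as log2(TPM + 1), which understates changes of genes at low TPM. Limma 3.58.1 in R 4.3.3 fitted 1 mean per genotype to all 9 libraries with an intensity trend, two-sided, with Benjamini-Hochberg adjustment over 11133 genes and a threshold of 0.05. The procedure was tested on simulated data. All 10 genes are named in every comparison; from each list up to 3 called genes per direction are named, or the 2 most abundant, of which 1 is not reported here. The genes and lists were chosen with earlier results of these data known. Alternatives were 19 settings: pseudocounts, filters on low values, scaling, library weights, the intensity trend, a replicate block, the 6 libraries compared and each library left out. Word sharing used 31-base words of GENCODE M21 transcripts, which may differ from the authors' set. Adgre1 and Nrdc were found under older symbols. Exact tests used scipy 1.17.1.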

Additional observations from a re-analysis of the deposited data

How the results depend on the processing

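Of 570 values of the 10 genes under 19 alternatives in 3 comparisons, 555 stayed on the same side of the threshold and 15 gained a call, 7 of them with library weights; none changed sign with a call. In the Ndufa4l3-miR147 knockout against wild type 0 of the 10 genes were called under every alternative. Against wild type in the Ndufa4 knockout the count was 2 with quantile normalization, 3 with library weights and 0 to 2 with a library left out. Between the knockouts it was 1 with quantile normalization, 4 with library weights and 0 to 1 with a library left out. The counts over all genes were 48, 956 and 361 in the 3 comparisons. They were 306, 238 and 64 with only the 6 libraries compared, 538, 3045 and 1726 with library weights, and 13 to 198, 266 to 1586 and 82 to 740 with a library left out. Without the intensity trend the first was 30. Of called genes 32.9% were higher in the Ndufa4 knockout than in wild type and 67.9% were higher in the Ndufa4l3-miR147 knockout than in the Ndufa4 knockout; with median-of-ratios scaling these were 52.7% and 49.7%.

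Replicate numbers are shared between groups, but libraries with the same number did not consistently deviate together. For replicates 1 to 3 the correlation of their deviations from group means was -0.138, 0.0456 and -0.0495 between the Ndufa4l3-miR147 knockout and wild type. It was -0.0677, -0.132 and -0.0427 between the Ndufa4 knockout and wild type, and 0.179, -0.0164 and 0.0923 between the knockouts. Pairs with different numbers ran from -0.164 to 0.133. With a replicate block 24, 661 and 162 genes were called, and 0 of the 10 genes in each comparison; Stat2 between the knockouts, Sord in the Ndufa4l3-miR147 knockout against wild type and Eif3j1 in the Ndufa4 knockout against wild type lost their calls. A call absent under the block does not show a smaller difference. TPM without depth limit what can be said of Nlrc5, the least abundant of the 10 genes. With 3 technical libraries a group, the call of H2-K1 between the knockouts and against wild type in the Ndufa4 knockout changed with single libraries.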

Other observations

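B2m and Pdia3 lie on the chromosome of the gene removed in the first knockout, so its surroundings were tabulated after the values had been seen. Of 12 tested genes within 1 Mb of AA467197, 1 was called in the Ndufa4l3-miR147 knockout against wild type and 2 in the Ndufa4 knockout against wild type, beside 0.431% and 8.59% of all genes. Sord, sorbitol dehydrogenase, fell in both: to 39.2 ± 2.39 TPM in the Ndufa4l3-miR147 knockout, against 51.4 TPM in wild type (limma adjusted p = 0.0386, called in 9 of 19 alternatives and not without any 1 of the 6 libraries compared), and to 31.5 TPM in the Ndufa4 knockout (limma adjusted p = 8.31e-04, called in 19 of 19). Eif3j1, a translation initiation factor subunit, rose by 0.44 ± 0.10 to 16.6 TPM in the Ndufa4 knockout, against 11.9 TPM in wild type (limma adjusted p = 0.0356, called in 9 of 19 and not without any 1 wild-type library).

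Members of the class I set did not vary as a unit over the 9 libraries. The Pearson r of log2(TPM + 1) was 0.923 between H2-K1 and Tapbp and 0.865 between H2-D1 and Tap2, and -0.632 between B2m and Tap1. Between Erap1 and Nlrc5 it was -0.791, and -0.111 without Ndufa4 knockout replicate 3, a comparison chosen after seeing the data; without that library the other 3 were 0.919, 0.887 and -0.537. For the pairs among H2-K1, H2-D1, Tap2 and Tapbp, a grouping also chosen after seeing the data, r ran from 0.64 to 0.923. Without Ndufa4 knockout replicate 3 these pairs ran from 0.848 to 0.96. All these values describe libraries that share genotype and culture within groups of 3.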
